A study of Mus musculus with 9 samples.

Results

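The 10 genes Gfap, Vim, Nes, Lcn2, Serpina3n, Cp, Osmr, Steap4, Aspg and Aqp4 are commonly used to recognise reactive astrocytes, and they were taken by symbol from the authors' 2 comparison tables of mouse thalamus. All 10 were among the 4071 genes listed for stroke against sham, and 3 of them, Lcn2, Cp and Nes, were among the 1021 listed for mmpp against stroke. Thalamic RNA came from wild-type mice, of the strain C57/BL according to the design text, on day 7, in 9 samples of 3 groups with 3 samples each, named sham, stroke and mmpp. The design gives photothrombotic surgery, in which a light-activated dye clots vessels, and injection of a melanin nanozyme, that is, pigment particles that act like enzymes. Genotype, tissue and day were shared by all groups. What was done to sham, which groups were injected, what mmpp abbreviates, the age of the mice and whether mice were pooled for a sample are left unsaid by the labels used here. The tables hold the mean of each group in TPM (a share of all transcripts that accounts for gene length) and no value per sample, so the spread behind each mean, the overlap of the groups and the depth of each library are unknown. A gene entered a table with a p-value under 0.05 and a fold change of at least 2, so a missing gene has no value and is not shown to be unchanged. Rose and fell are used below for an authors' q-value (a p-value adjusted over all tested genes) under 0.05, and listed higher or lower for the rest.

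Astrocytes are the glial cells that take up transmitter, buffer ions and water and contact blood vessels. After injury they become reactive: they enlarge, build more intermediate filaments of GFAP, vimentin and nestin, and secrete acute-phase proteins. Cytokines of the interleukin 6 family, among them oncostatin M, act through receptors that share the subunit gp130 and activate the transcription factor STAT3, a known driver of Gfap. Interleukin 1, TNF and C1q from microglia are a further known trigger in mice. Several of the 10 genes are also used by other cells, for example Vim and Nes by vessel cells and dividing progenitors, Vim by macrophages, and Lcn2 by neutrophils. The genes left out of these examples are not thereby specific to astrocytes. Of 8 astrocyte markers, only Gfap and Aqp4 were listed for stroke against sham. The other 6, Aldh1l1, Slc1a2, Slc1a3, Gja1, Glul and Sox9, were not listed, so their levels are unknown here. In whole tissue, more astrocytes and more RNA per astrocyte cannot be told apart.

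RefSeq promoter windows of the build GRCm38.p6, running from 250 bases before to 50 bases after a start, were matched by symbol for 9 of the 10 genes. The submitters' notes name the build GRCm39, so these positions are RefSeq's and are used for their letters only. Windows of 5 genes are shown: Gfap as the most abundant, Serpina3n and Lcn2 as those with the largest fold changes, Osmr as the receptor, and Steap4 as the other gene besides Gfap with STAT letters. Capitals mark every match, on either strand, to TTCNNNGAA (STAT), TGANTCA (AP-1) or GGGNNNNNCC (NF-kB). In Gfap the STAT and NF-kB letters overlap in 1 run of capitals, and in Serpina3n each run of capitals holds 2 overlapping NF-kB matches. The windows lie at chr11:102897151-102897450 (minus strand, Gfap), chr12:104406458-104406757 (plus, Serpina3n), chr2:32387690-32387989 (minus, Lcn2), chr15:6874264-6874563 (minus, Osmr) and chr5:7960222-7960521 (plus, Steap4).
Gfap: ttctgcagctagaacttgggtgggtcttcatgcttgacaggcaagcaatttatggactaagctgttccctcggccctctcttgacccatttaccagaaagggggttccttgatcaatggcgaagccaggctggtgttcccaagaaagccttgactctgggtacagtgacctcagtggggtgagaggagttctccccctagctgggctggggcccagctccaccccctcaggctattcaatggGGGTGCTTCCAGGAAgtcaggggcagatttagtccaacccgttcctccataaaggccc
Serpina3n: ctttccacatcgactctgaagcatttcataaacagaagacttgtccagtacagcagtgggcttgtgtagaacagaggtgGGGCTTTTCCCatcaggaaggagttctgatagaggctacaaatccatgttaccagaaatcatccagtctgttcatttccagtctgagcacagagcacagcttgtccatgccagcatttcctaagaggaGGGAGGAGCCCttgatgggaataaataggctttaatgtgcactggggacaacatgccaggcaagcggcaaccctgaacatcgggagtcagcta
Lcn2: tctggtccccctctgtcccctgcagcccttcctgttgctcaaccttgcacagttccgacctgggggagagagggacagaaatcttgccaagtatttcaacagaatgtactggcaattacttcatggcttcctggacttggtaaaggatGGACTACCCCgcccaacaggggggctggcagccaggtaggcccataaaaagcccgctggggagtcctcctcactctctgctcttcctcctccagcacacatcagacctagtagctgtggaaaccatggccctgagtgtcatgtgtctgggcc
Osmr: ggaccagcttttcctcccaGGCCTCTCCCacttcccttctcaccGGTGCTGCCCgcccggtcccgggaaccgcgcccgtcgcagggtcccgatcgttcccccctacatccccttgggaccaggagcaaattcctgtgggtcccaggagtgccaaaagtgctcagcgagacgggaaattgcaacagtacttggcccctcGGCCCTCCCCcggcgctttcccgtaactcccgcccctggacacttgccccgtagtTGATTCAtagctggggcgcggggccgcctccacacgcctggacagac
Steap4: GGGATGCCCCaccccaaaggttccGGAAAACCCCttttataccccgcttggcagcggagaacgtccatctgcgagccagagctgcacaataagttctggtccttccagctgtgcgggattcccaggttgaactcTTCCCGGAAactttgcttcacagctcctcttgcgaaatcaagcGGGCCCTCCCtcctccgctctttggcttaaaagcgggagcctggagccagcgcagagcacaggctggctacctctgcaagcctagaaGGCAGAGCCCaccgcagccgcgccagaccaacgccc

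The STAT letters occurred in 2 of the 9 genes, Gfap and Steap4, and in 9.55% of all 27025 genes with a window (8.30% of all 32851 windows). In Gfap the match TTCCAGGAA began 2 bases before the start, and in Steap4 the match TTCCCGGAA began 116 bases before it. AP-1 letters were found in 2 genes, Osmr and Cp, and in 8.97% of all genes with a window (7.81% of all windows). Both matches read TGATTCA, as the pattern takes any middle base, so the AP-1 label is loose. The still looser NF-kB letters were found in all 9 genes and in 53.5% of all genes with a window (50.8% of all windows). G and C made up 38.3% to 66.0% of the members' windows, with a median of 52.7% over all windows. These matches describe letters only, and no factor's binding was measured.

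**Figure D1:**
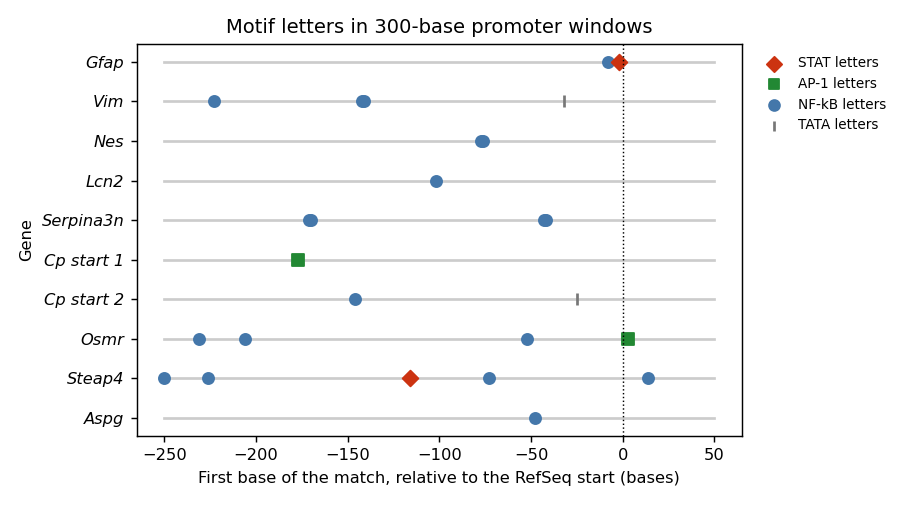
First base of each motif match (horizontal axis, bases from the RefSeq start, the dotted line) in the 300-base windows of 9 reactive astrocyte genes, with both starts of Cp. STAT letters (red diamonds) appear in Gfap and Steap4, AP-1 letters (green squares) in Osmr and Cp, NF-kB letters (blue circles) in every gene, and TATAAA on the gene's own strand (grey bars) in Vim and Cp.

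Stroke against sham addresses how far the reactive astrocyte programme differed after the injury. Of the 10 genes, 9 rose and the other, Steap4, was listed higher. Among all 20804 genes adjusted in this comparison, 9.67% were listed and rose and 3.37% were listed and fell. These shares belong beside every list count of this comparison below. The genes were chosen as known injury markers with earlier results of these data in view, so their count is a description. Their median log2 fold change was 1.89, that of all 2012 risen genes was 2.44 and that of all 4071 listed genes, higher or lower, was 1.33. Together their means summed to 543 TPM in sham and 3774 TPM in stroke, 6.95-fold more. Gfap alone made up 72.3% of that sum in sham and 65.0% in stroke, and Gfap, Serpina3n and Vim together made up 93.8% in stroke. In descending order of their stroke means the genes were Gfap, Serpina3n, Vim, Lcn2, Aqp4, Nes, Cp, Aspg, Osmr and Steap4. Nes, Cp and Aspg lay close together, between 15.9 and 18.1 TPM, and without values per sample it is unknown which neighbours differ beyond their spread.

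**Figure D2:**
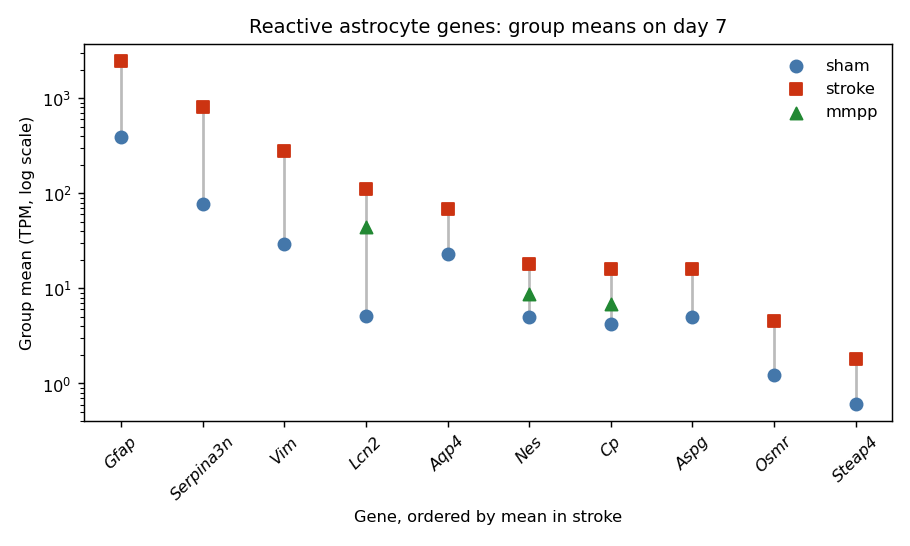
Group means (vertical axis, TPM, log scale) of the 10 reactive astrocyte genes, ordered by their mean in stroke, for sham (blue circles), stroke (red squares) and, where listed, mmpp (green triangles). Every stroke mean lies above its sham mean, and the mmpp means of Lcn2, Nes and Cp lie between both.

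All 3 filament genes rose. Gfap, which encodes the main astrocyte filament protein, had an authors' mean of 393 TPM in sham and 2453 TPM in stroke. That is 6.25-fold higher in the authors' deposited table (q = 1.24e-15), and Gfap held place 15 among the means of listed genes in stroke. Vim, for vimentin, a filament partner of GFAP, had authors' means of 29.5 TPM in sham and 277 TPM in stroke, a 9.42-fold increase in the authors' deposited table (q = 1.27e-09). Nes encodes nestin, a filament protein of neural progenitors that reactive astrocytes make again. Its authors' means were 4.99 TPM in sham and 18.1 TPM in stroke, a 3.62-fold increase in the authors' deposited table (q = 8.71e-06). The ratios of the filament means differed between sham and stroke, as the folds were unequal, and the part of other cells in this was not tested. Per 100 TPM of Gfap, Vim stood at 7.51 TPM in sham and 11.3 TPM in stroke, and Nes at 1.27 TPM and 0.737 TPM, ratios of means with no error. Of 9 further filament and linker genes, Des (desmin, a muscle filament also made by vessel mural cells) rose and Nefl (the light neurofilament of neurons) fell. Des was at 4.29 TPM in sham and 11.2 TPM in stroke, and Nefl at 147 TPM and 60.9 TPM, in the authors' deposited table. Prph, a filament of peripheral neurons, was listed lower at 8.78 and 3.73 TPM (q = 0.126, authors' deposited table), and the remaining 6, with the GFAP partner gene Synm among them, were not listed.

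Of the genes for secreted proteins, Lcn2 and Serpina3n had the largest folds among the 10, and Cp a smaller one than Vim and Gfap. Lcn2, an iron-carrier-binding lipocalin that astrocytes and neutrophils release, had authors' means of 5.15 TPM in sham and 111 TPM in stroke. It rose 21.5-fold (q = 3.89e-41, authors' deposited table), with the fifth smallest p-value of all 20804 adjusted genes (place 5). By size of fold it held place 353 among the 2012 risen genes. Serpina3n, an inhibitor of serine proteases, had authors' means of 76.9 TPM in sham and 808 TPM in stroke, a 10.5-fold increase in the authors' deposited table (q = 1.92e-16). Cp encodes ceruloplasmin, a copper enzyme that oxidises iron for export. It went from 4.27 TPM in sham to 16.1 TPM in stroke, a 3.78-fold increase in the authors' deposited table (q = 0.000138). Per 100 TPM of Gfap, Serpina3n stood at 19.6 TPM in sham and 32.9 TPM in stroke, and Lcn2 at 1.31 TPM and 4.51 TPM.

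Serpina3n belongs to a cluster of related genes whose reads can match several copies, so its values carry that uncertainty, and how the authors counted such reads is unknown here. Of 9 other Serpina3 genes, 3 rose and Serpina3f was listed higher, at far lower levels. Serpina3g was at 1.68 TPM in sham and 5.62 TPM in stroke, and Serpina3i at 0.0320 and 0.882 TPM, in the authors' deposited table. Serpina3h was at the value for not detected in sham and at 0.364 TPM in stroke. Among 5 protease genes only Mmp9 rose, from 1.49 to 3.86 TPM (q = 0.000114, authors' deposited table). Gzmb was listed higher with q = 0.0501 in the authors' deposited table.

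Osmr encodes the oncostatin M receptor, which pairs with gp130. It was the second lowest of the 10 in level (place 2), with authors' means of 1.24 TPM in sham and 4.49 TPM in stroke, and rose 3.64-fold (q = 1.16e-05, authors' deposited table). Its ligand and the feedback inhibitor of the pathway rose too. Osm, for oncostatin M, was at 0.273 TPM in sham and 3.51 TPM in stroke, a 12.8-fold increase in the authors' deposited table (q = 1.79e-11). Socs3, which STAT3 induces and which blocks the receptor, went from 3.12 to 13.002 TPM, 4.17-fold higher in the authors' deposited table (q = 1.5e-09). Ptpn6, a phosphatase of blood and microglial cells, rose 19.2-fold (q = 1.69e-25, authors' deposited table). Of 21 genes of the gp130 and STAT3 pathway other than Osmr, 5 rose (these 3 and Il6ra among them) and none fell, where 9.67% of all adjusted genes rose and 3.37% fell. The median log2 fold change of the 6 listed was 1.81. Cntf, an astrocyte cytokine of the same family, was listed higher (q = 0.0817, authors' deposited table). The other 15, with Stat3, Il6st (gp130), the kinases and the ligand genes Il6 and Lif among them, were not listed.

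Of the 2 genes for other enzymes, Aspg rose and Steap4 did not pass. Aspg, named for asparaginase, had authors' means of 4.97 TPM in sham and 15.9 TPM in stroke, a 3.21-fold increase in the authors' deposited table (q = 7.75e-07). Steap4 encodes a membrane reductase of iron and copper. It had the lowest means of the 10, 0.605 TPM in sham and 1.81 TPM in stroke, 2.98-fold apart (q = 0.115, authors' deposited table). Of 16 further genes of iron and metal handling, 5 rose and 1 fell. Hmox1, which breaks down haem, rose 16.8-fold, the phagosomal transporter gene Slc11a1 12.4-fold and the ferritin light chain gene Ftl1 7.01-fold in the authors' deposited table. Slc22a17, named as a receptor for LCN2, fell from 759 TPM in sham to 325 TPM in stroke (q = 0.0248, authors' deposited table). Steap1, a relative of Steap4, was listed lower, at 5.21 and 1.35 TPM (q = 0.0789, authors' deposited table).

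Aqp4, the water channel of astrocyte endfeet on vessels, rose with the smallest fold of the 10. Its authors' means were 22.95 TPM in sham and 68.3 TPM in stroke, a 2.97-fold increase in the authors' deposited table (q = 0.0215). It was the only gene of the 9 risen whose q-value was not under 0.01. None of 6 genes of the scaffold that holds the channel at the endfoot, Dtna and Mlc1 among them, and none of 7 other aquaporin genes was listed. Per 100 TPM of Gfap, Aqp4 stood at 5.85 TPM in sham and 2.78 TPM in stroke.

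**Figure D3:**
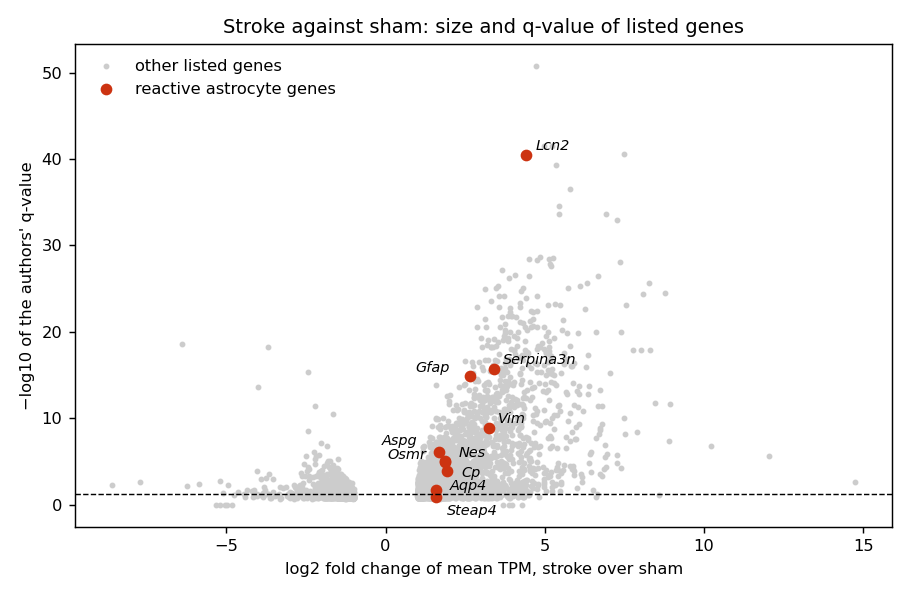
Log2 fold change of mean TPM, stroke over sham (horizontal axis), against −log10 of the authors' q-value (vertical axis) for listed genes detected in both groups, with the 10 reactive astrocyte genes in red and a dashed line at a q-value of 0.05. Lcn2 lies near the top of the plot, Steap4 just under the line and the others between them.

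Other astrocyte lists differed in how many members rose. Of 5 further genes named as markers of any reactive astrocyte in mice, 4 rose and Hspb1, a small heat shock protein gene, fell from 160 TPM in sham to 64.3 TPM in stroke (q = 0.00248, authors' deposited table). Timp1, an inhibitor of matrix proteases, rose 24.4-fold, the hyaluronan receptor gene Cd44 11.1-fold, the chemokine gene Cxcl10 4.79-fold and the lipid receptor gene S1pr3 3.88-fold in the authors' deposited table. Of 12 genes named A1, after their response to endotoxin in mice, 8 rose, Ugt1a1 was listed higher and Amigo2 and Fbln5 were listed lower, with a median log2 fold change of 2.27 over the 11 listed. Ugt1a1 was not detected in sham and at 1.15 TPM in stroke (q = 0.129, authors' deposited table). Psmb8 (immunoproteasome) rose 10.3-fold, Srgn 13.1-fold and H2-D1 (MHC class I) 5.33-fold in the authors' deposited table. Of 12 genes named A2, after their response to ischaemia in mice, 6 rose and Ptgs2 was listed higher, with a median log2 fold change of 3.22 over the 7 listed. B3gnt5, a sugar transferase gene and 1 of the 6, was not detected in sham. Tgm1, a transglutaminase, rose 25.0-fold, Emp1 23.2-fold and Cd14 9.33-fold in the authors' deposited table. Many of these genes, Psmb8, Srgn, H2-D1 and Cd14 among them, are also expressed by microglia and macrophages. Of 17 other astrocyte genes, mostly of transmitter uptake, metabolism and coupling, Slc6a11, a GABA transporter, fell from 692 TPM in sham to 296 TPM in stroke (q = 0.0276, authors' deposited table), and 16 were not listed.

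**Figure D4:**
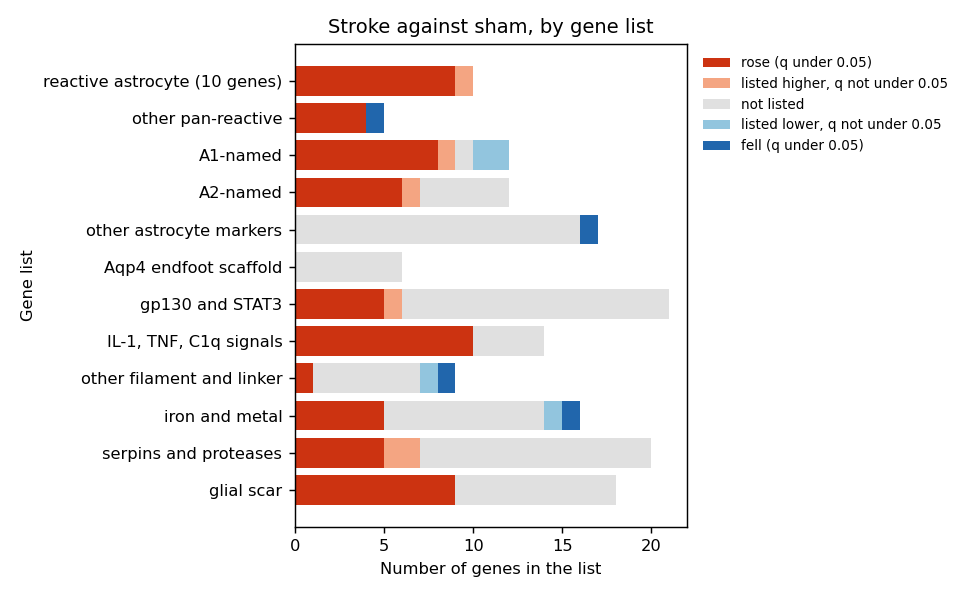
Number of genes (horizontal axis) in each of 12 lists that rose (dark red), were listed higher without passing (light red), were not listed (grey), were listed lower without passing (light blue) or fell (dark blue) in stroke against sham. Among the 10 reactive astrocyte genes 9 rose, while among the 17 other astrocyte markers 16 were not listed and 1 fell.

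Genes of signals known to trigger reactive astrocytes were counted too, and whether they acted on the 10 genes was not tested. Of 14 genes of interleukin 1, TNF and C1q signalling, 10 rose and the other 4 were not listed. All 6 ligand genes rose, with 3 of 4 receptor genes and 1 of 4 transcription factor genes. Among all adjusted genes 9.67% rose. C1qa went from 285 to 5321 TPM and C1qc from 198 to 3264 TPM, and the TNF receptor gene Tnfrsf1b rose 9.95-fold, in the authors' deposited table. Of 18 glial scar genes 9 rose, with Lgals1 (galectin) 11.2-fold, Anxa2 (annexin) 6.78-fold and Tgfb1 15.2-fold higher in the authors' deposited table. Of 5 lipocalin relatives of Lcn2, Orm2 rose from the value for not detected to 0.645 TPM (q = 0.0055), and Ptgds and Rbp4 were listed lower (q = 0.0854 and 0.110, authors' deposited table).

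Markers of other cells moved with the same comparison, and their part in the values above was not tested. Of 9 microglia markers 8 rose, led by q-value by Fcrls (18.8-fold in the authors' deposited table) and with Tmem119 among them, and the sum of the listed means was 282 TPM in sham and 2692 TPM in stroke. Among fibroblast and mural markers 6 of 10 rose, led by the collagen genes Col3a1, Col1a1 and Col1a2, with sums of the listed means of 63.3 TPM in sham and 489 TPM in stroke. All 6 cell division markers rose, led by Top2a, Cdk1 and Mki67, from 4.36 TPM to 75.6 TPM in sum. Infiltrating myeloid markers had 5 of 6 risen, Arg1, Ms4a7, F13a1, Ccr2 and Plac8 (4.78 TPM and 84.7 TPM in sum), and neutrophil markers 1 of 8, S100a9, with Ltf and S100a8 listed higher (5.40 TPM and 12.005 TPM in sum). Endothelial markers had 1 of 10 risen (Cdh5), precursors of oligodendrocytes 2 of 3 (Cspg4 and Gpr17), ependyma 1 of 6 (Ccdc153) and oligodendrocytes none of 8 listed. Neuron markers had 6 of 10 fallen, led by Snap25, Stmn2 and Slc17a6 (listed sums 3404 TPM and 1377 TPM in sum) and choroid plexus markers 6 of 9, led by Ttr, Kl and Kcne2 (listed sums 4410 TPM and 392 TPM in sum). Of all these markers, no listed one was at the value for not detected in either group. As TPM is a share, the gains and losses of listed genes by themselves shift the unlisted genes by -0.17 on the log2 scale between sham and stroke.

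The second comparison addresses whether the reactive astrocyte genes differed between mmpp and stroke. None of the 10 fell in mmpp, that is, with an authors' q-value under 0.05, where 0.0306% of the 19616 genes adjusted did. At an unadjusted p-value under 0.05, 3 were listed lower and none higher, against 3.58% of all adjusted genes listed lower and 1.24% listed higher. All 10 were also listed for stroke against sham, which most adjusted genes were not. Of the 4071 genes listed there, 815 were also listed for mmpp against stroke, higher or lower. Which program made the authors' test is unknown here. The other 7, Gfap, Vim, Serpina3n, Osmr, Steap4, Aspg and Aqp4, were not listed, so no mmpp value is known for them.

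Lcn2 had an authors' mean of 44.3 TPM in mmpp beside 111 TPM in stroke, 2.50-fold lower (q = 0.212, authors' deposited table). It held place 52 by p-value among the adjusted genes. Cp was at 6.92 TPM in mmpp beside 16.1 TPM in stroke, 2.33-fold lower (q = 0.469, place 143, authors' deposited table). Nes was at 8.77 TPM in mmpp beside 18.1 TPM in stroke, 2.06-fold lower (q = 0.650, authors' deposited table). The place recovered for Nes was not a whole number, so it is known only to be 450 or earlier. The mmpp means of these 3 genes lay between those of sham and stroke, and being below stroke follows from being listed lower. For Lcn2 the mmpp mean was 8.59-fold above the sham mean, for Nes 1.76-fold and for Cp 1.62-fold, ratios with no test. Both comparisons use the same stroke samples, so the same stroke mean enters both differences.

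**Figure D5:**
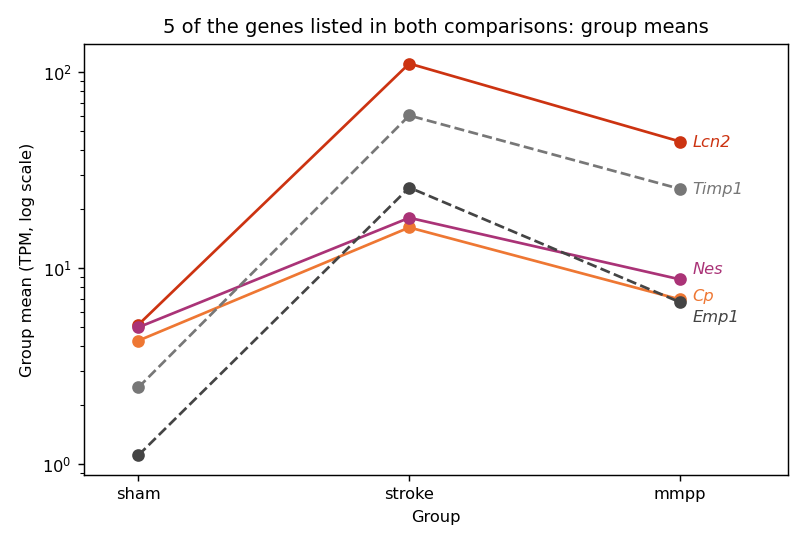
Group means (vertical axis, TPM, log scale) in sham, stroke and mmpp for Lcn2, Cp and Nes (solid lines) and for Timp1 and Emp1 (dashed lines), a further reactive and an A2-named gene. Timp1 and Emp1 were drawn after their values were seen. The rest of the 815 genes listed in both comparisons, Srgn, Ptgs2, Ugt1a1 and Amigo2 among them, are not drawn. The 5 drawn were listed higher in stroke than in sham and lower in mmpp, so their highest mean in stroke follows from that listing. The mmpp mean of Lcn2, 44.3 TPM, stays farther above sham than those of Cp and Nes.

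In the astrocyte and trigger lists, no gene had a q-value under 0.05 in mmpp against stroke. The listings named next rest on unadjusted p-values under 0.05. Most genes of these lists were not listed: 4 of 5 further reactive genes, 9 of 12 A1-named and 10 of 12 A2-named genes. Timp1 was at 25.4 TPM in mmpp and 60.1 TPM in stroke (q = 0.510), and Emp1 at 6.70 and 25.8 TPM (q = 0.417), in the authors' deposited table. Of the A1-named genes Srgn was listed lower, at 67.9 and 191 TPM (q = 0.516), and Amigo2 higher, at 23.8 and 9.80 TPM (q = 0.510, authors' deposited table). Amigo2 had its lowest mean in stroke, with 21.0 TPM in sham. Ugt1a1 and Ptgs2 were listed lower from means of 1.15 and 0.257 TPM in stroke. Of the 14 trigger genes 3 were listed lower and 11, C1qa and C1qc among them, were not listed. Tnf was at 0.888 TPM in mmpp and 3.55 TPM in stroke (q = 0.334, authors' deposited table). Il1a was at 1.43 and 3.40 TPM (q = 0.783) and Il1b at 0.708 and 1.68 TPM (q = 0.823), in the authors' deposited table. Ptpn6, Ftl1, Tgfb1 and Serpinf1 were listed lower and Rbp4 higher in the other lists of glial genes. Fibroblast and mural markers had 3 of 10 listed lower (Dcn, Acta2 and Col1a1), cell division markers 3 of 6 (Mki67, Plk1 and Ccna2), infiltrating myeloid markers 2 of 6 (Ccr2 and F13a1) and microglia markers 1 of 9 (Sall1). Neuron markers had 1 of 10 listed higher, Slc17a6. These markers of other cells had q-values of at least 0.336 in the authors' deposited table, and their part in the lower means of Lcn2, Cp and Nes was not tested.

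Genes with the most similar pair of log2 fold changes were looked up for Lcn2, Cp and Nes among 646 named genes listed in both tables and detected in all groups. Nearest to Lcn2 were Lrmp, at 0.946, 20.8 and 8.34 TPM in sham, stroke and mmpp, and Cdca3, at 1.33, 29.7 and 11.4 TPM, in the authors' deposited tables. Their distances, in log2 units over the 2 fold changes, were 0.0334 and 0.0836. Nearest to Cp were Rad51ap1 (distance 0.0734) and Vwa5a (0.0736), and nearest to Nes were Rrbp1 (0.0181) and Sh3bgrl3 (0.0435). The likeness rests on 3 group means per gene.

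The annotation in the authors' tables gives some of the 10 genes the same terms. The counts below are over listed genes, and of all 4071 listed genes 49.4% rose and 17.2% fell. Gfap, Vim and Nes carry the term for intermediate filaments, of which 12 listed genes had 6 risen and 3 fallen in stroke, shares near those of all listed genes. Besides these 3 the risen were Des, Krt80 and the nuclear lamina gene Lmnb1, and the fallen were Nefl, Krt1 and Krt222. Lcn2, Cp and Steap4 carry terms for iron homeostasis, with 11 of 17 listed genes risen and 1, Slc22a17, fallen. Gfap and Osmr are both placed in the KEGG pathway of JAK-STAT signalling, with 28 of 33 listed genes risen and 3 fallen. The fallen were Pik3ca and the inhibitor genes Socs2 and Socs5. Among the risen were the inhibitor genes Socs3 and Ptpn6 and the receptor genes Csf2rb, Il2rg and Il7r. Which cells these transcripts came from was not tested. Lcn2, Serpina3n and Cp carry the term for the extracellular space, with 253 of 365 listed genes risen and 38 fallen.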

How the data were processed

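Per the submitters' processing notes, the build was GRCm39 and the tools were HTSeq 0.6.0, TopHat2 2.0.12 and Bowtie2 2.2.3, with no roles stated. Per the labels' protocols, a SMARTER mRNA kit was used on RNA isolated by TRIzol. The authors deposited q-values, p-values, log2 fold changes and group means in TPM, per the file headers. The testing program, the strand setting and the treatment of reads matching several genes are not given in the sources used here. The deposited log2 fold changes were checked to be log2 ratios of the deposited means (largest difference 5.35e-11), and a mean of 0.0001 TPM stands for not detected.

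Members were matched by symbol, each to 1 identifier. The number of genes adjusted was recovered from the Benjamini-Hochberg relation of p and q (tolerance 0.001), which gave whole or tied ranks for 96.4% (stroke against sham) and 99.8% (mmpp against stroke) of the genes, and the recovery was tested on simulated tables. A raw count table that the labels name was not analysed here, so no refit was made. How the authors' p-values took account of the spread between samples, which may be partly technical, is unknown here. Members and lists were chosen with earlier results of these data known. Named were all members, list genes with the smallest q-values (3, or all where at most 5 were listed), and the 2 nearest genes per member. Genes named beyond that rule were chosen after their values were seen. Python 3.11.15, pandas 2.3.3 and numpy 2.4.6 were used. Results for some genes of the lists are not reported here.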

Additional observations from a re-analysis of the deposited data

How the results depend on the processing

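The count of 9 reactive astrocyte genes that rose in stroke became 8 at a q-value under 0.01 (without Aqp4), 8 with at least 10 TPM in the higher group (without Osmr), 10 at an unadjusted p under 0.05, and stayed 9 with at least 1 TPM, with mean TPM + 1, or with the shift of unlisted genes taken out. The count of 0 that fell in mmpp became 3 at an unadjusted p under 0.05, as listed. The other settings all keep a q-value under 0.05 or stricter, so they could only return 0 and test nothing here. Taking out the shift could only enlarge the rises in stroke, so it could not lower the count of 9. Neither that nor adding 1 TPM to both means could reverse any of the 13 log2 fold changes, so only their sizes are informative. With mean TPM + 1 added before the log, 2 were under 1 in size, Steap4 in stroke (0.81) and Nes in mmpp (-0.97). No paired analysis was possible because the tables used here hold group means only. For the same reason no replicate was left out, and the raw count table that the labels name was not analysed here. The depth of each library is unknown.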
